A study of Drosophila melanogaster with 4 samples.

Results

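The cytosolic ribosomal protein genes encode the protein parts of the ribosome that works outside mitochondria. In these data they comprised 78 genes of 16510 gene names, 47 of the large subunit and 31 of the small subunit. The genes were chosen by name, as those written RpL or RpS with a number, RpLP with a number, or the same with a letter after it. That pattern matched 87 names, of which 9 are not reported here. A mean of at least 1 FPKM over all libraries was also required, and each of the 78 passed, since the lowest, RpL34a, had a mean of 43.3 FPKM. FPKM is the number of sequenced fragments scaled to transcript length and to all mapped fragments. The gene sta, which encodes the small subunit protein SA, carries another name and is not among the 78.

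RNA-seq of polyadenylated RNA was done on testes of adult Drosophila melanogaster. Of 4 libraries, 2 came from flies labelled Su(var)3-9, the mutant of the series, and 2 from wild-type flies, and the series calls these replicates biological. All flies were males 3 days old kept at 23 °C, and each library held RNA of 50 testes. Su(var)3-9 encodes a methyltransferase that marks histone H3 in heterochromatin. No allele or genetic background is stated for either genotype.

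Ribosomal proteins assemble with ribosomal RNA into a small subunit, which reads the mRNA, and a large subunit, which joins amino acids. Most of these proteins are needed in about equal number in every ribosome. Flies that carry a single working copy of many of these genes develop slowly, the Minute phenotype. Transcription of these genes in Drosophila starts at a special pyrimidine-rich initiator and depends on the factor Trf2, and the growth regulator Myc raises their expression. In the testis, growth by ribosome production is a feature of germline stem cells, spermatogonia and growing spermatocytes, whereas transcription is largely shut down in spermatids.

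Several facts of the libraries bear on the values below. Su(var)3-9 itself was listed at 0 and 7.83 FPKM in mutant-labelled testes, against 7.93 and 9.74 FPKM in wild-type testes (log2 fold change -1.72, SE 1.11, limma adjusted p = 0.339), so its level did not set the second mutant-labelled library apart. Directions are therefore given between libraries as labelled. The sum of all deposited FPKM was 1028900 and 1004210 in mutant-labelled testes, against 851134 and 810704 in wild-type testes. Read depth is not given in the files. Among genes at 4 to 6 FPKM, Cufflinks' 95% intervals reached a median of 51.1% and 52.1% above the value in mutant-labelled testes, against 34.8% and 33.2% in wild-type testes, and for the ribosomal protein genes 14.1% and 14.6% against 10.6% and 10.7%. Spermatocyte and spermatid markers were present in every library. Of 11 spermatocyte markers 1, bol, was lower in mutant-labelled testes and 10 did not pass, with a median log2 fold change of -0.31. Of 9 spermatid markers 7 were higher in mutant-labelled testes, where 11.4% of all tested genes were, and dj and gdl did not pass. The spermatid markers summed to 40931 and 39167 FPKM in mutant-labelled testes, against 23508 and 21965 FPKM in wild-type testes. Of 4 tested markers of the early germline 2, bgcn and mei-P26, were lower, where 8.67% of all tested genes were. The other 2, vas and bam, did not pass, with log2 fold changes of -0.51 and 0.12. This list summed to 69.0 and 70.9 FPKM in mutant-labelled testes against 111 and 114 FPKM in wild-type testes, and nos was listed at 0 throughout. The 12 accessory gland markers summed to 9.50 and 49.6 FPKM in mutant-labelled testes and to 2884 and 6.13 FPKM in wild-type replicates 1 and 2, and Acp95EF was listed at 0 in all libraries. None of the 11 accessory gland markers tested passed by limma, 0 had an unadjusted p under 0.05, and 10 were listed at 0 in at least 1 library. Of 3 tested markers of the ejaculatory duct and bulb, PebIII was higher (283 and 242 FPKM in mutant-labelled testes, 124 and 74.4 FPKM in wild-type testes, log2 fold change 1.44, limma adjusted p = 0.0363). Est-6 and Gld did not pass, with log2 fold changes of -0.08 and 0.08. PebIII made up most of the summed level of the list, 295 and 264 FPKM against 143 and 91.5 FPKM. Of 9 muscle markers 1 was lower, and of 4 hub markers 1 was higher and 1 lower. The part of these markers in the differences below was not tested. In whole testes, fewer cells of a type and less RNA per cell cannot be told apart.

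The ribosomal protein genes were among the well-expressed genes, and 58 of the 78 lay in the top 10% of the 10784 tested genes by mean level. Their median was 322 and 287 FPKM in mutant-labelled testes, against 210 and 180 FPKM in wild-type testes. Levels spread widely over the genes, some of which are copies for the same protein. The SD over the genes was 1.02 and 0.97 on the log2 scale in mutant-labelled testes and 0.97 and 0.96 in wild-type testes. All but 7 genes had a mean between 100 and 600 FPKM, with 3 above this range and 4 below it. The order of the genes was much the same in all libraries. Over the 78 genes Spearman's rho was 0.953 for the pair of mutant-labelled libraries and 0.977 for the wild-type pair. Across genotypes it was 0.898 to 0.914. These are descriptions over genes that share the same libraries.

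RpL41 and RpL39, which encode very small proteins of the large subunit, stood highest. RpL41 had 5320 and 4807 FPKM in mutant-labelled testes and 4224 and 3600 FPKM in wild-type testes. RpL39 had 3041 and 2608 FPKM in mutant-labelled testes, against 1492 and 1384 FPKM in wild-type testes. Together they made up 25.1% and 25.4% of the summed FPKM of the 78 genes in mutant-labelled testes and 25.5% and 24.4% in wild-type testes. Their longest annotated transcripts have 320 and 288 bases, and FPKM of such short transcripts depends on the assumed fragment length, so their place at the top is less certain than that of RpS29, RpLP2, RpS13 and RpL38, which came next. RpS29, a zinc-binding protein of the small subunit head, had 970 and 895 FPKM in mutant-labelled testes and 559 and 603 FPKM in wild-type testes.

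At the low end stood RpL34a, RpS28a and RpS10a, each a copy of a gene that is also present as a more strongly expressed partner. RpL34a had 61.6 and 50.1 FPKM in mutant-labelled testes and 34.5 and 27.0 FPKM in wild-type testes. RpS28a had 38.5 and 65.1 FPKM in mutant-labelled testes and 49.1 and 51.0 FPKM in wild-type testes. RpS10a had 64.2 and 56.2 FPKM in mutant-labelled testes and 58.7 and 68.5 FPKM in wild-type testes. RpS28a and RpS10a overlapped between the genotypes, and RpL34a did not.

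**Figure D1:**
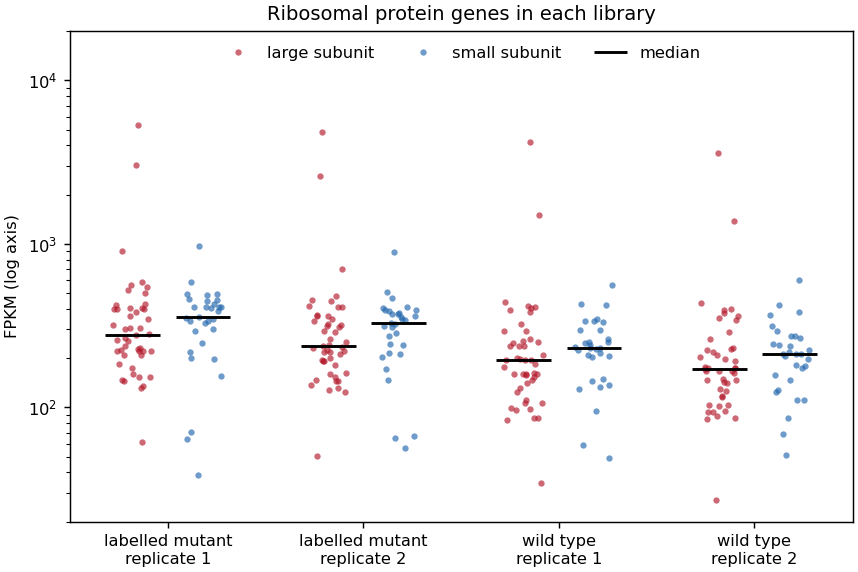
FPKM of each ribosomal protein gene (log axis) in the 4 libraries, with large subunit genes in red and small subunit genes in blue, and the median of each subunit as a black bar. The medians of both subunits are higher in both mutant-labelled libraries (279 and 237 FPKM for the large subunit, 359 and 329 FPKM for the small) than in wild-type testes (194 and 172 FPKM, 231 and 212 FPKM), and RpL41 and RpL39 stand apart at the top.

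Taken as a share of each library, the ribosomal protein genes accounted for 3.23% and 2.91% of all FPKM in mutant-labelled testes and for 2.63% and 2.52% in wild-type testes. The genotypes did not overlap on this measure, which is relative to the total of each library. Without RpL39 and RpL41 the shares were 2.42% and 2.17% in mutant-labelled testes and 1.96% and 1.91% in wild-type testes. With 2 libraries a genotype an exact permutation test of such a value cannot go below p = 0.333, two-sided, so no test is given. Within each genotype the first replicate was the higher: 66 of the 78 genes were higher in replicate 1 than in replicate 2 of the mutant-labelled libraries, where 54.6% of all tested genes were, and 63 of 78 in wild-type testes, where 53.9% were. The median gap between replicates was 0.18 on the log2 scale in mutant-labelled testes and 0.13 in wild-type testes.

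Between the genotypes, 44 of the 78 genes were higher in mutant-labelled testes by the test across all genes (limma adjusted p under 0.05), none was lower and 34 did not pass. At an unadjusted p under 0.05, 62 were higher and 1 was lower. The test was limma on log2(FPKM + 1), on which all fold changes here are given. Of all 10784 genes tested, 11.4% were called higher and 8.67% lower, while 56.4% of the ribosomal protein genes were called higher. Their median log2 fold change was 0.57, with quartiles of 0.36 and 0.76, against -0.01 over all genes tested, and 74 of the 78 were above 0. Of the genes called, 28 belonged to the large and 16 to the small subunit. In 67 of the 78 genes both mutant-labelled libraries lay above both wild-type libraries, as they did in 32.2% of all genes, and in 1, RpS14b, both lay below. For 41 of the 78 the deposited 95% intervals of both mutant-labelled libraries lay above both of the wild type. The same held for 8.84% of the tested genes with a single row. Each interval belongs to 1 library and does not measure the spread between replicates.

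These differences depend on how the libraries are scaled. When FPKM was rescaled to the same total in every library, the median over all tested genes moved from -0.01 to -0.27 and that of the ribosomal protein genes to 0.28, so the distance between the medians was 0.56 in place of 0.58. By that scale 22 of the genes were higher and RpS14b was lower, and over all genes 588 were higher and 2046 lower, where 1229 were higher and 935 lower on FPKM as deposited. Quantile normalization gave 25 higher and brought the distance between the medians to 0.27. Across 12 alternatives other than leaving out a library, 9 genes were called higher under each of them: RpL8, RpL18, RpL27, RpL34b, RpLP1, RpS6, RpS24, RpS26 and RpS28b. Without a trend in the variance model 10 were higher, and RpS18, RpL28, RpLP2, RpL23, RpS10b, RpS29, RpL34a and RpL40 were among those that then did not pass (limma adjusted p from 0.0519 to 0.0924). With 1 library left out the test had little power, calling 0 to 262 of all 10784 genes and none of the 78, so the loss of calls says nothing of these genes in particular. The median log2 fold change then ran from 0.48 to 0.62, with 33 to 57 of the 78 higher at an unadjusted p under 0.05. The median was 0.62 without wild-type replicate 1, the library with the accessory gland markers, and 0.60 without the second mutant-labelled library, where Su(var)3-9 was near its wild-type level.

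**Figure D2:**
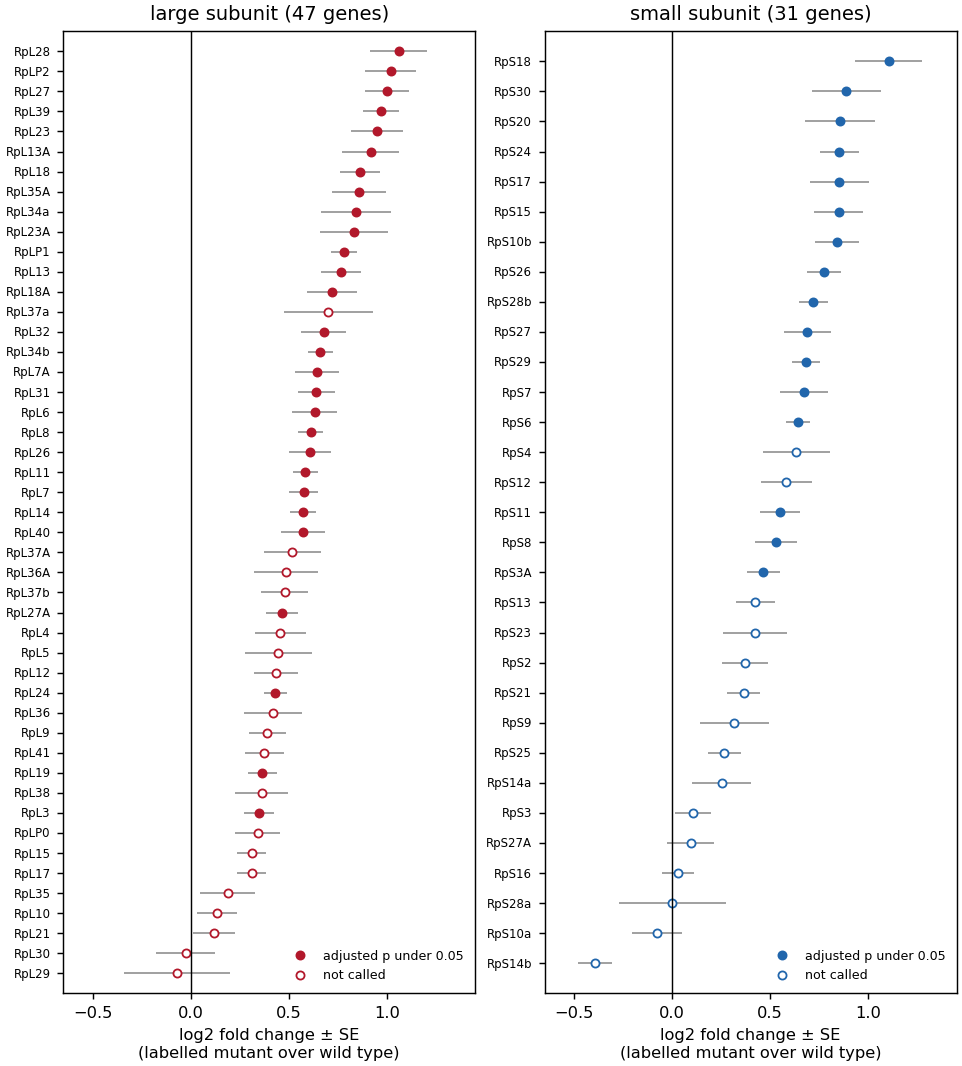
Log2 fold change (mutant-labelled libraries over wild type) with its standard error for each ribosomal protein gene, on log2(FPKM + 1), in the large subunit (left) and the small subunit (right). Filled points passed a limma adjusted p of 0.05, open points did not. Fold changes run from 1.06 for RpL28 to -0.07 for RpL29 in the large subunit and from 1.10 for RpS18 to -0.39 for RpS14b in the small subunit.

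Among the small subunit genes RpS18 had the largest difference. RpS18 (2R, 20263979 to 20264848, dm6), a protein of the small subunit head next to the decoding site, had 493 and 391 FPKM in mutant-labelled testes and 228 and 182 FPKM in wild-type testes (log2 fold change 1.10, SE 0.17, limma adjusted p = 0.0244). Both mutant-labelled libraries lay well above the wild type, and their 95% intervals, from 435 to 551 and from 340 to 442 FPKM, did not reach those of the wild type, from 204 to 252 and from 161 to 203 FPKM. The smallest adjusted p values of the subunit belonged to RpS6, RpS28b and RpS29. RpS6, the phosphorylation target of the kinase S6k, had 200.003 and 204 FPKM in mutant-labelled testes and 130.2 and 128 FPKM in wild-type testes (log2 fold change 0.64, SE 0.06, limma adjusted p = 0.0112). Its replicates differed by far less than the genotypes. RpS29 was called as well (log2 fold change 0.68, SE 0.07, limma adjusted p = 0.0127), and it did not pass under cyclic loess normalization, where its log2 fold change was 0.31.

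In the large subunit RpL28, RpLP2, RpL27, RpL39 and RpL23 had the largest differences. RpL28 (3L, 3220911 to 3222960, dm6) had 421 and 363 FPKM in mutant-labelled testes and 209 and 167 FPKM in wild-type testes (log2 fold change 1.06, SE 0.15, limma adjusted p = 0.0195). RpL27 had 401 and 339 FPKM in mutant-labelled testes and 194 and 174 FPKM in wild-type testes (log2 fold change 1.0, SE 0.11, limma adjusted p = 0.0144), with Idh3g overlapping 16.0% of its exon length. RpL23 had 401 and 322 FPKM in mutant-labelled testes and 195 and 176 FPKM in wild-type testes (log2 fold change 0.95, SE 0.13, limma adjusted p = 0.020). For each of these genes the libraries of the genotypes were separate, as they were, in the same direction, for 67 of the 78 genes. RpL39 was called on the deposited scale (log2 fold change 0.97, SE 0.09, limma adjusted p = 0.0113). With the trend on transcript length removed its log2 fold change was 1.602 and it did not pass (limma adjusted p = 0.0722), and RpL41, which was not called (log2 fold change 0.37, SE 0.10, limma adjusted p = 0.0727), ran from -0.18 under cyclic loess to 0.87 with that trend removed. Both have annotated transcripts far shorter than most of the set, and their fold changes moved widely between these settings.

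The acidic stalk of the large subunit recruits the GTPase factors of translation. It is built on RpLP0 and carries dimers of RpLP1 and RpLP2, and RpL12 lies at its base. RpLP1 (2L, 419952 to 420864, dm6) had 523 and 479 FPKM in mutant-labelled testes and 294 and 287 FPKM in wild-type testes, a mean of 501 ± 31.4 against 291 ± 5.10 (SD, n = 2 each), and it had the smallest limma adjusted p of the 78 genes, 0.00981 (log2 fold change 0.78, SE 0.07). RpLP2 had 903 and 705 FPKM in mutant-labelled testes and 395 and 391 FPKM in wild-type testes (log2 fold change 1.02, SE 0.13, limma adjusted p = 0.0179). RpLP0, the base of the stalk, did not pass, with 147 and 125 FPKM in mutant-labelled testes and 112 and 102 FPKM in wild-type testes (log2 fold change 0.34, SE 0.11, limma adjusted p = 0.114). RpL12 did not pass either, with 259 and 237 FPKM in mutant-labelled testes and 199 and 168 FPKM in wild-type testes (limma adjusted p = 0.0658). All 4 stalk genes had separate libraries, higher in mutant-labelled testes, as had 67 of the 78 genes and 32.2% of all tested genes. The deposited intervals of RpLP0 and RpL12 overlapped between the genotypes. The difference between the stalk genes called and those not called was not tested.

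RpL40 and RpS27A encode a ribosomal protein fused to ubiquitin. RpL40 was called higher, with 347 and 309 FPKM in mutant-labelled testes and 238 and 203 FPKM in wild-type testes (log2 fold change 0.57, SE 0.11, limma adjusted p = 0.0391). It did not pass on the scale of equal totals, where its log2 fold change was 0.28 (limma adjusted p = 0.0946). RpS27A had 428 and 392 FPKM in mutant-labelled testes and 347 and 423 FPKM in wild-type testes, so its libraries overlapped (log2 fold change 0.10, SE 0.12, limma adjusted p = 0.605).

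Other sites of the ribosome were read as 6 small groups whose members were set after the values were known. Their counts describe these genes only, beside 56.4% of the 78 genes and 11.4% of all tested genes called higher. At the polypeptide exit site, 5 of 7 genes (RpL17, RpL19, RpL23A, RpL26, RpL31, RpL35 and RpL39) were higher. The other 2, RpL17 and RpL35, did not pass, and the median log2 fold change of the 7 was 0.61. Uhg7 overlapped 31.9% of the exon length of RpL23A. In the particle that RpL5 and RpL11 form with 5S RNA before joining the large subunit, RpL11 was higher (221 and 230 FPKM in mutant-labelled testes, 152 and 148 FPKM in wild-type testes, log2 fold change 0.58, limma adjusted p = 0.0137). RpL5 did not pass (253 and 193 FPKM in mutant-labelled testes, 177 and 148 FPKM in wild-type testes, log2 fold change 0.45, limma adjusted p = 0.149). Of 3 genes near the decoding site, RpS15 and RpS18 were higher and RpS23 did not pass, with a median of 0.85. Around the peptidyl transferase centre, RpL3 and RpL8 were higher and RpL10 did not pass, with a median of 0.35. The antisense RNA gene asRNA:CR31144 overlapped 18.5% of the exon length of RpL3. At the mRNA exit, RpS26 and RpS28b were higher, and RpS28a, RpS14a and RpS14b did not pass, with a median of 0.25 and a range from -0.39 to 0.77. At the mRNA entry, RpS30 was higher (496 and 371 FPKM in mutant-labelled testes, 251 and 213 FPKM in wild-type testes, log2 fold change 0.89, limma adjusted p = 0.0397), whereas RpS2 and RpS3 did not pass, with a median of 0.37 over the 3 genes. RpS3 had 198 and 211 FPKM in mutant-labelled testes and 202 and 178 FPKM in wild-type testes, a log2 fold change of 0.11.

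At the other end of the order, 4 genes had a log2 fold change below 0. RpS14b (X, 7934898 to 7935792, dm6) had 70.4 and 66.8 FPKM in mutant-labelled testes and 94.5 and 86.4 FPKM in wild-type testes (log2 fold change -0.39, SE 0.09, limma adjusted p = 0.0511). Its libraries did not overlap, while the deposited intervals did, and it passed as lower under 7 of the 12 alternatives. RpL29 had 547 and 321 FPKM in mutant-labelled testes and 443 and 437 FPKM in wild-type testes, so the wild-type libraries lay between the other 2 (log2 fold change -0.07, SE 0.27). RpL30 had 222 and 212 FPKM in mutant-labelled testes and 253 and 193 FPKM in wild-type testes, with 25.1% of its exon length overlapped by CG31793. RpS10a was the fourth, and RpS28a and RpS16, with log2 fold changes of 0.00 and 0.03, came next. RpS16, a protein of the small subunit head that reaches the P site, had 353 and 316 FPKM in mutant-labelled testes and 340 and 315 FPKM in wild-type testes.

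The spread of the differences among the genes, an SD of 0.30 in log2 fold change, was larger than the median standard error of a single gene, 0.11. Within the set, Spearman's rho of fold change over the 78 genes was -0.03 with mean level and -0.05 with the length of the longest annotated transcript. Over all tested genes these were 0.25 and -0.32. Both are descriptions across genes of the same 4 libraries.

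The large and small subunits had close medians. Of 47 large subunit genes 28 (59.6%) were higher and 19 did not pass, with a median log2 fold change of 0.57. Of 31 small subunit genes 16 (51.6%) were higher and 15 did not pass, with a median of 0.55. The large subunit median was higher by 0.0232, with a spread between replicates of 0.0145 (SD) for the same quantity, and the sign turned to -0.03 with the length trend removed. The summed FPKM of the large subunit was 1.996 and 1.96 times that of the small subunit in mutant-labelled testes and 1.99 and 1.96 times in wild-type testes, and 1.24 and 1.21 times against 1.23 and 1.23 times without RpL39 and RpL41. The ranges of the genotypes overlapped on both measures. Small subunit genes had the higher median level in each library.

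Because fold changes in these data also climb with level and fall with transcript length, the ribosomal protein genes were set beside genes alike in these. Other tested genes within the same range of levels numbered 3011, of which 26.1% were called higher and 8.24% lower, with a median log2 fold change of 0.17. For each ribosomal protein gene the 50 other genes nearest in mean log2 level were taken, 1539 genes in all with 35.5% called higher. The fold change of 64 of the 78 genes was above the median of their 50 neighbours, by a median of 0.29. This median was 0.32 in the large and 0.16 in the small subunit. The medians of the neighbours themselves centred on 0.25 for the large and 0.34 for the small subunit. The ribosomal protein genes are short, with a median of 829 bases for the longest annotated transcript, against 1316 bases in these neighbours and 1704 bases over all tested genes. With the 50 genes nearest in both level and length, whose median length was 862 bases and of which 42.3% were called higher, 54 of the 78 genes were above the median of their neighbours, by a median of 0.15. By subunit that median was 0.19 for the large and 0.10 for the small. No test was made of these comparisons.

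**Figure D3:**
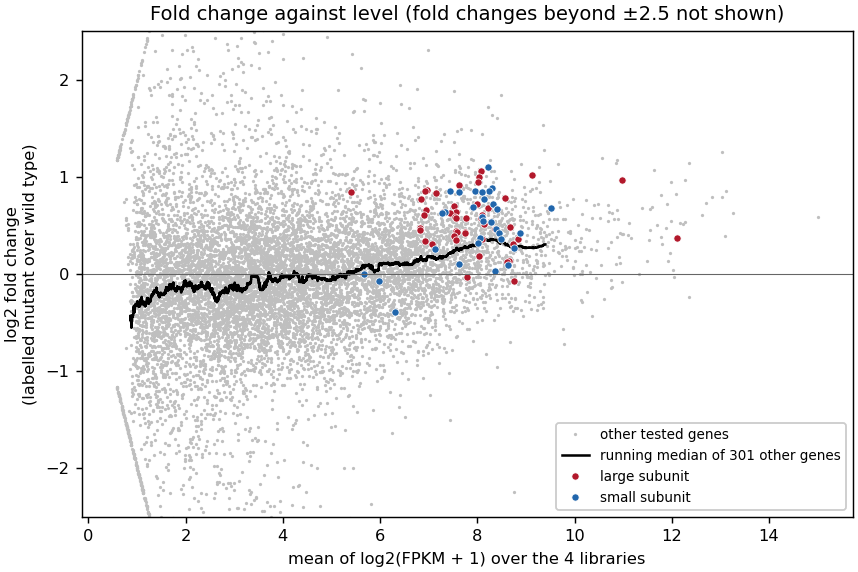
Log2 fold change (mutant-labelled libraries over wild type) against mean log2(FPKM + 1) over the 4 libraries for the other tested genes within the plotted range (grey), with large subunit genes in red, small subunit genes in blue and a running median of the other genes in black. The running median climbs with level, and most ribosomal protein genes lie above it.

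**Figure D4:**
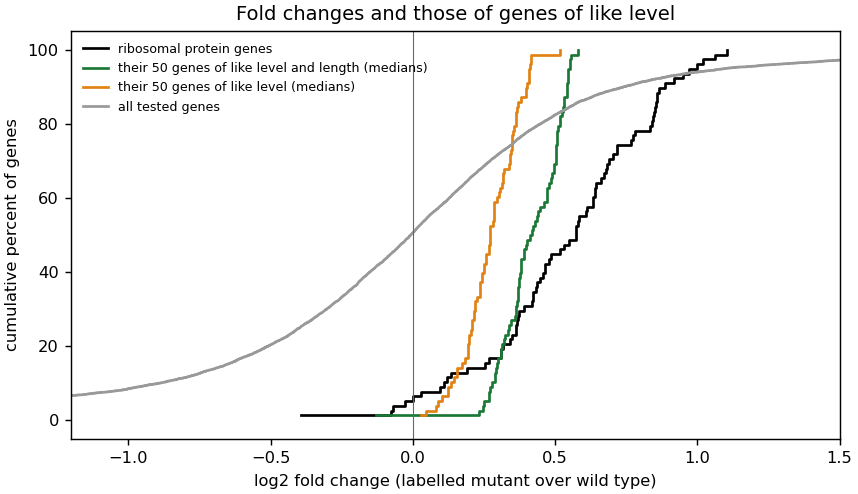
Cumulative distributions of log2 fold change for the 78 ribosomal protein genes (black), for all 10784 tested genes (grey), and for the medians of the 50 genes nearest to each ribosomal protein gene in level (orange) or in level and length (green). Medians of 50 genes spread less than single genes, so the curves are compared by their position, with medians of 0.57, -0.01, 0.27 and 0.42.

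Some proteins are encoded by a pair of gene copies, taken here as names that differ only in a final a or b. How alike the copies are in sequence was not examined, and fragments could be divided between them in error. In the pair RpS14a and RpS14b, adjacent on the X chromosome, the fold changes of the copies had opposite signs and neither was called. The log2 fold change of RpS14a ran from -0.04 to 0.25 over the 12 alternatives, so its sign was not settled. RpS14a had 156 and 147 FPKM in mutant-labelled testes and 145 and 111 FPKM in wild-type testes, and its share of the pair was 68.9% and 68.7% in mutant-labelled testes and 60.5% and 56.2% in wild-type testes. The sum of the copies was 226 and 214 FPKM in mutant-labelled testes and 239 and 197 FPKM in wild-type testes, which overlapped, so the pair as a whole had a log2 fold change of 0.02. In the pair RpS10a and RpS10b the share of RpS10a was 18.04% and 19.0% in mutant-labelled testes and 28.3% and 31.9% in wild-type testes. RpS10b was higher (292 and 240 FPKM in mutant-labelled testes, 149 and 146 FPKM in wild-type testes, log2 fold change 0.84, limma adjusted p = 0.0190), and RpS10a was not called (log2 fold change -0.08, limma adjusted p = 0.698).

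RpS28b was likewise higher, with 413 and 405 FPKM in mutant-labelled testes and 261 and 236 FPKM in wild-type testes (log2 fold change 0.72, SE 0.07, limma adjusted p = 0.0123), whereas RpS28a overlapped between the genotypes. The interval of RpS28a was wide, from 4.06 to 72.9 FPKM in the first mutant-labelled library. Both copies of RpL34 were higher, RpL34b with 153 and 153 FPKM in mutant-labelled testes and 97.2 and 95.4 FPKM in wild-type testes (log2 fold change 0.66, limma adjusted p = 0.0116), and RpL34a by 0.84 on the log2 scale (limma adjusted p = 0.0449), which did not pass without a filter on low values or on the rescaled values. Neither RpL37a (log2 fold change 0.70, limma adjusted p = 0.108) nor RpL37b (0.48, limma adjusted p = 0.0623) passed. Both had separate libraries, as had 67 of the 78 genes in the same direction, while their deposited intervals overlapped between the genotypes. The summed levels of RpL34, RpL37, RpS10 and RpS28 differed by 0.71, 0.62, 0.62 and 0.63 on the log2 scale, values that were not tested.

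**Figure D5:**
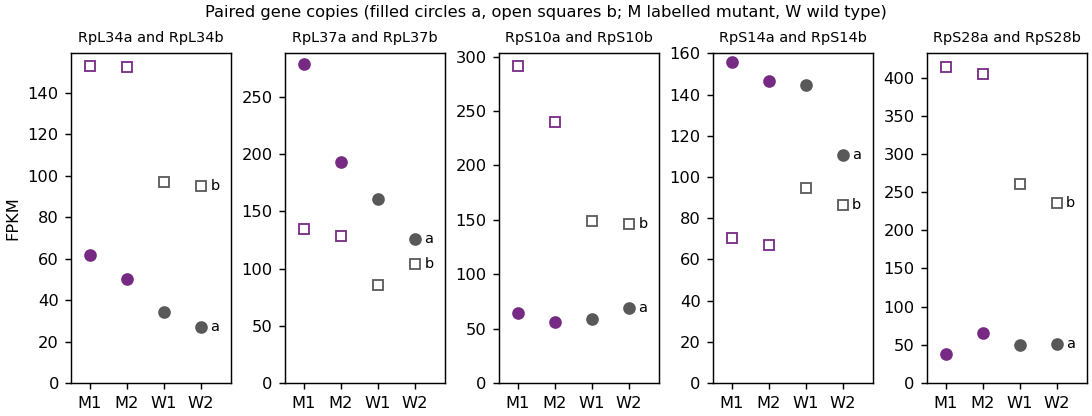
FPKM of both copies of 5 ribosomal protein genes in mutant-labelled testes (M1 and M2, purple) and wild type (W1 and W2, grey), with copy a as filled circles and copy b as open squares. In RpS14 copy b is the lower in mutant-labelled testes while copy a is the higher, and neither was called by limma. In RpS10 and RpS28 copy b is separate between the genotypes while copy a overlaps.

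By chromosome, the genes called higher were 7 of 17 on 2L, 11 of 18 on 2R and 7 of 13 on 3L. On 3R they were 14 of 19 and on the X 4 of 10. Over the 78 genes 56.4% were called higher, and over all tested genes 11.4%. In the same order of chromosomes the median log2 fold changes were 0.45, 0.57, 0.61, 0.67 and 0.53. The median differences from genes alike in level and length were 0.006, 0.15, 0.25, 0.24 and 0.15. Differences between chromosomes were not tested, and the share of all genes on each is not given. RpS3A, the only one of the 78 genes on chromosome 4, was higher as well, with 412 and 372 FPKM in mutant-labelled testes and 296 and 271 FPKM in wild-type testes (log2 fold change 0.46, SE 0.08, limma adjusted p = 0.0339). Many ribosomal protein genes carry small nucleolar RNA genes, which guide the modification of ribosomal RNA, in their introns. The annotation placed 57 such genes in 25 of the 78 loci. Of these 25 hosts 15 were higher, with a median log2 fold change of 0.55, and of the 53 others 29 were higher, with a median of 0.58. Exons of another gene overlapped those of 24 ribosomal protein genes, in 8 of them over at least 10% of the exon length, and without these 8 the count of higher genes was 39 of 70.

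Proteins that join the same ribosome but carry another kind of name were read after their values were seen. The gene sta was higher, with 199.6 and 173 FPKM in mutant-labelled testes and 131 and 125 FPKM in wild-type testes (log2 fold change 0.54, SE 0.10, limma adjusted p = 0.0319). On the scale of equal totals it did not pass, at 0.25 (limma adjusted p = 0.113). Rack1, which encodes a scaffold protein bound to the small subunit, had 139 and 113 FPKM in mutant-labelled testes and 88.5 and 79.5 FPKM in wild-type testes and did not pass (log2 fold change 0.57, SE 0.13, limma adjusted p = 0.0563). Of 66 mitochondrial ribosomal protein genes 3 (4.55%) were higher, where 11.4% of all tested genes were, with a median log2 fold change of 0.38. The difference from the cytosolic genes was not tested.

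Genes that work with, make or regulate ribosomes were read as lists, against 11.4% of all tested genes called higher and 8.67% called lower. Of 17 tested genes for translation initiation factors 2 were lower and 15 did not pass (median log2 fold change -0.09). The poly(A)-binding protein gene pAbp had 429 and 415 FPKM in mutant-labelled testes and 573 and 570.2 FPKM in wild-type testes (log2 fold change -0.44, SE 0.05, limma adjusted p = 0.0144), and eIF3-S10, a subunit of the initiation factor eIF3, had 53.6 and 54.4 FPKM against 71.9 and 72.4 FPKM (log2 fold change -0.41, limma adjusted p = 0.0349). With the length trend removed neither passed, at -0.17 and -0.14, and on the scale of equal totals both were lower, at -0.73 and -0.70. Of 10 genes for elongation and termination factors, Ef1gamma was higher, the termination factor gene Elf was lower and 8 did not pass (median -0.04). Ef1gamma had 114.5 and 110.0 FPKM in mutant-labelled testes and 89.4 and 89.3 FPKM in wild-type testes, and its log2 fold change of 0.33 (limma adjusted p = 0.0467) was 0.04 on the scale of equal totals. Elf had 53.2 and 49.7 FPKM in mutant-labelled testes and 92.8 and 78.4 FPKM in wild-type testes (log2 fold change -0.72, limma adjusted p = 0.0271), and with the length trend removed it did not pass, at -0.43.

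Ribosome biogenesis factors were at lower levels, with a median of 9.56 FPKM over 33 tested genes. Of these Fib was higher, pit was lower and 31 did not pass (median log2 fold change -0.03). Fib, the methyltransferase fibrillarin of the nucleolus, had 49.0 and 45.6 FPKM in mutant-labelled testes and 30.7 and 34.8 FPKM in wild-type testes (log2 fold change 0.52, limma adjusted p = 0.0462). The helicase gene pit had 3.29 and 4.46 FPKM in mutant-labelled testes and 8.10 and 8.93 FPKM in wild-type testes (log2 fold change -0.97, limma adjusted p = 0.0455). Neither passed with the length trend removed, at 0.40 for Fib and -0.85 for pit, or without a filter on low values. On the scale of equal totals Fib did not pass, at 0.23 (limma adjusted p = 0.242), while pit was lower, at -1.23. None of 5 tested genes of RNA polymerase I, which transcribes ribosomal RNA, was called by limma, and 2 of them had an unadjusted p under 0.05. RpI12 had 7.47 and 5.48 FPKM in mutant-labelled testes and 14.4 and 11.7 FPKM in wild-type testes (log2 fold change -0.91, limma adjusted p = 0.0564). CG3756 went the other way, with 63.3 and 49.7 FPKM in mutant-labelled testes and 40.8 and 43.3 FPKM in wild-type testes (log2 fold change 0.41, limma adjusted p = 0.132).

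Of 14 regulators of growth and of ribosomal protein genes, 2 were lower and 12 did not pass, with a median log2 fold change of -0.33, where 8.67% of all tested genes were lower. The Myc gene dm had 1.41 and 0.906 FPKM in mutant-labelled testes and 7.64 and 6.58 FPKM in wild-type testes (log2 fold change -1.92, SE 0.25, limma adjusted p = 0.0176). Trf2 had 23.3 and 23.1 FPKM in mutant-labelled testes and 40.7 and 46.0 FPKM in wild-type testes (log2 fold change -0.87, SE 0.11, limma adjusted p = 0.0170). For both genes the libraries of the genotypes were separate, and with the length trend removed neither passed, at -1.36 for dm (limma adjusted p = 0.0510) and -0.29 for Trf2 (limma adjusted p = 0.128). Among 4 tested genes of the response to a shortage of ribosomal proteins, Gadd34 was higher (100.3 and 102 FPKM in mutant-labelled testes, 77.5 and 75.4 FPKM in wild-type testes, limma adjusted p = 0.0322), crc was lower (150.5 and 132 FPKM in mutant-labelled testes, 203 and 206 FPKM in wild-type testes, limma adjusted p = 0.0288), and Xrp1 and PEK did not pass. With the length trend removed neither passed, at 0.34 for Gadd34 and -0.46 for crc. On the scale of equal totals Gadd34 did not pass, at 0.11 (limma adjusted p = 0.356), while crc was lower, at -0.82 (limma adjusted p = 0.0133). Xrp1, the transcription factor that responds to the loss of a ribosomal protein gene copy, had 23.6 and 30.6 FPKM in mutant-labelled testes and 22.4 and 20.9 FPKM in wild-type testes.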

How the data were processed

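Each of the 4 libraries, 2 per genotype, has a table of FPKM per gene with the bounds of a 95% interval, as deposited by the authors. The submitters' processing notes name TopHat, Cufflinks and dm6. Versions, settings, annotation and strand use are not stated there. Cufflinks FPKM, as deposited, divides fragments by transcript length and library size. Read counts were not used, and depth is known only through the intervals.

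Rows of 1 name were summed. limma 3.58.1 (lmFit, eBayes with trend, R 4.3.3) was run on log2(FPKM + 1) for the 10784 genes that averaged at least 1 FPKM, with Benjamini-Hochberg adjustment over all of them and a threshold of 0.05. Fold changes on this scale understate those of low genes. The series calls the replicates biological. The procedure was also run on simulated data with the same noise in every gene, smaller than that between the mutant-labelled replicates. Differences in scaling and trends with level or length were not simulated, so that run does not show how the procedure handles them. Transcript length, overlaps and small nucleolar RNA genes came from Ensembl release 115 on dm6, where 97.3% of matched names had the reference start. Length means the longest annotated transcript, whichever is expressed.

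The genes and lists were chosen with earlier results of these data known. Named genes were the 6 highest and 3 lowest by level, the 6 largest and 6 smallest fold changes, the 3 smallest adjusted p of each subunit, the stalk and ubiquitin-fusion genes, paired copies, dm and up to 3 called genes per list; others were chosen after their values were seen. Alternatives changed the pseudocount, filter, scaling, length and level trends, variance model, replicate block and repeated names, or left out a library. No sequences were analysed here.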

Additional observations from a re-analysis of the deposited data

How the results depend on the processing

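Pseudocounts of 0.1 and 5, no filter, a minimum of 5 FPKM and the highest row of a repeated name kept the median log2 fold change of the ribosomal protein genes at 0.56 to 0.58 and 36 to 51 genes higher. Rescaling to equal totals gave a median of 0.28 with 22 genes higher, rescaling on all other genes 0.29 with 23, quantile normalization 0.28 with 25, and cyclic loess 0.32 with 24. Without a variance trend 10 were higher (1103 of all genes called), and with the length trend removed 34 (1270 of all genes). RpS14b was the 1 lower gene under a pseudocount of 5, the minimum of 5 FPKM, the 4 scalings and the length step. With the replicate block, which no label supports and where the replicate differences of the genotypes correlated at -0.05 over genes, 49 were higher, 41 of them among the 44, and 1671 genes were called in all.

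Leaving out 1 library gave 0 to 262 calls over all genes and 0 among the ribosomal protein genes by limma, 33 to 57 of which were higher at an unadjusted p under 0.05, and the median ran from 0.48 (without the first mutant-labelled library) to 0.62, and their distance from genes of like level from 0.19 to 0.33. The difference between the subunits was 0.0901 under quantile normalization, 0.0501 under cyclic loess, -0.0299 with the length trend removed, and -0.00640 (without wild type replicate 1) to 0.0486 on leaving out a library, with -0.000665 without the second mutant-labelled library, so its sign was not settled. Distance from genes alike in level and length was 0.15, and 20 or 200 neighbours in place of 50 stayed within the replicate spread. Overlapping genes, left out after seeing the data, changed the median by less than that spread. Depth limits low genes such as dm and pit most, and without wild type replicate 1, which held most accessory gland marker FPKM, the median was 0.62.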
